A study of Mus musculus with 59 samples.

Results

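The class I and class II histone deacetylases were described across all 19 groups of a mouse study of prenatal valproic acid. The set comprised Hdac1, Hdac2, Hdac3 and Hdac8 of class I, Hdac4, Hdac5, Hdac7 and Hdac9 of class IIa, and Hdac6 and Hdac10 of class IIb. Members were the probe sets whose annotation carried only the symbol of one of these genes, which gave 17 of 45101 probe sets and 10 of 18194 genes. Measured values played no part in that rule. All samples were brain tissue of C57BL/6 mice, read on Affymetrix Mouse 430 2.0 arrays, with 59 arrays in all and 3 per group, or 4 per group at postnatal day 84.

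Pregnant mice received valproic acid (VPA) or its amide valpromide (VPM), each at 300 mg/kg by mouth, or the vehicle methylcellulose (MC, 0.5%). Dosing was once a day for 3 days, starting at E12.5 (embryonic day 12.5) and ending on the day of the E14.5 samples, so every group, the vehicle groups included, had been dosed through the mother. VPA, VPM and MC embryos gave telencephalon on E14.5, with 3 h between the final dose and collection, and forebrain and hippocampus were taken at E18.5 from the same 3 treatments. Hippocampus and cortex of male adults of 12 to 13 weeks came from VPA and MC mice, with a running wheel (RW) in the cage after weaning or without one. Hippocampus of male VPA and MC mice was also collected at P84. The labels call the arrays biological replicates and do not say how many litters they came from, so p-values measure the spread between these samples. The labels name no sex for embryos.

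Histone deacetylases remove acetyl groups from lysines of histones and other proteins, and class I enzymes do so in the nucleus within corepressor complexes. Class IIa members shuttle between nucleus and cytoplasm and hold down targets of MEF2 transcription factors, while the class IIb enzyme Hdac6 deacetylates tubulin in the cytoplasm. Valproic acid, an antiepileptic drug and a teratogen, inhibits class I enzymes and, more weakly, class IIa enzymes. Valpromide differs from it by an amide in place of the carboxylic acid and is used as an analog with little inhibitory activity. An array reads the transcripts of these genes, not the activity of the enzymes.

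Levels are given as scaled signal, the linear intensity of a probe set after each array was brought to a 2% trimmed mean of 500. Signals of different probe sets were not set against each other. Each gene was tested through its brightest probe set with limma, and a gene was called where its p adjusted over all genes tested was under 0.05. All 10 members had at least 100 units of scaled signal in all 59 arrays, so each was tested in every comparison.

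In E14.5 telencephalon, VPA changed deacetylase genes in both directions. Hdac1, Hdac3, Hdac5 and Hdac6 rose and Hdac7 and Hdac9 fell, which made 6 of 10 members, while Hdac2, Hdac4, Hdac8 and Hdac10 were not called by these probe sets. Over all 11068 genes tested, 5954 or 53.8% were called in the same comparison, so the share among the deacetylases was near that background. The members' median difference was 0.04 on the log2 scale, and that of all genes tested was 0.

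Among class I genes, Hdac1, a catalytic subunit of the Sin3, NuRD and CoREST complexes, changed in opposite directions after the 2 drugs. Its scaled signal was 3276, 3281 and 3311 in the VPA arrays, 1599, 1607 and 1503 in the VPM arrays, and 2171, 2245 and 2108 in the MC arrays. The 3 groups did not overlap, with VPA highest and VPM lowest. Hdac1 averaged 3289.5 ± 19.1 after VPA, against 2175 ± 68.8 in MC (SD, n = 3 each), a 1.51-fold rise (log2 0.60 ± 0.05 SE, adjusted p = 4.15e-06, limma). After VPM it averaged 1570 ± 58.0 and had fallen by 0.47 on the log2 scale (SE 0.05, adjusted p = 0.00109, limma), 1.39-fold below MC.

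Hdac3, the catalytic subunit of the NCoR and SMRT complexes, rose slightly after VPA. Its signal was 2012, 2239 and 2211 in VPA arrays, 1821, 1994 and 1867 in VPM arrays, and 1745, 1994.5 and 1915 in MC arrays. The lowest VPA array stood just above the highest MC array, and the difference was 0.19 ± 0.07 (log2, adjusted p = 0.0356, limma). This call was lost when MC replicate 1, MC replicate 3, VPA replicate 2 or VPA replicate 3 was left out, with adjusted p up to 0.205 over all alternatives.

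Hdac2, the partner of Hdac1 in the same complexes, gave 2 answers. The tested probe set read 7433, 8750.1 and 7606 in VPA arrays, against 8219, 8291 and 8636 in MC arrays, and these ranges overlapped (log2 -0.08, 95% interval -0.23 to 0.06, adjusted p = 0.301). VPA replicate 2 was the high array, and without it the difference was -0.16 with an adjusted p of 0.0321. A second Hdac2 probe set read 2882, 2801 and 2887 in VPA arrays, against 3465, 3501 and 3858 in MC arrays, without overlap (log2 -0.34 ± 0.08, adjusted p = 0.00488, limma). The remaining Hdac2 probe set was too dim to be tested at this age. Hdac8, an X-linked enzyme that acts on the cohesin subunit SMC3, averaged 203 ± 20.0 in VPA arrays and 209 ± 16.7 in MC arrays (SD, n = 3 each), with a wide interval of -0.47 to 0.38 on the log2 scale.

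Class IIa genes diverged after VPA. Hdac5, which is exported from the nucleus after phosphorylation by calcium-dependent kinases, read 3102, 3087 and 3321 in VPA arrays, 2308, 1919.7 and 2372 in VPM arrays, and 2092, 2348 and 2225 in MC arrays. All VPA arrays lay above all others, and Hdac5 rose 1.43-fold against MC (log2 0.51 ± 0.08, adjusted p = 0.000246, limma). Hdac7, best known as a regulator of thymocytes and of vessel integrity, read 435, 493 and 383 in VPA arrays, 869.8, 772 and 844 in VPM arrays, and 824.5, 855 and 809 in MC arrays. Every VPA array lay far below the other groups, and Hdac7 fell 1.91-fold (log2 -0.93 ± 0.10, adjusted p = 1.02e-05, limma). Its second probe set gave -0.88 ± 0.15 (adjusted p = 0.000444).

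Hdac9, a class IIa member also known as a splice variant without a catalytic domain, showed the largest difference of the 10 genes. It read 135, 139 and 152 in VPA arrays, 206, 281.5 and 339 in VPM arrays, and 261, 340.1 and 317 in MC arrays. Its VPA arrays were low and close together, whereas the VPM and MC arrays were spread and overlapped each other. The fall after VPA was 2.14-fold (log2 -1.10 ± 0.18, adjusted p = 0.00027, limma). A second Hdac9 probe set, under 100 units in all 9 arrays at this age, was not tested. Hdac4, which restrains chondrocyte maturation and is abundant in neurons, averaged 492 ± 30.6 in VPA arrays and 502 ± 22.5 in MC arrays (SD, n = 3 each), and its log2 difference was -0.03 (95% interval -0.22 to 0.16). The other 2 Hdac4 probe sets gave -0.02 and 0.00.

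In class IIb, Hdac6 read 2834, 2954 and 3081 in VPA arrays, 2041, 2195 and 2067 in VPM arrays, and 2049, 2052 and 2055 in MC arrays. The VPA arrays again formed a separate high group, 1.44-fold above MC (log2 0.53 ± 0.06, adjusted p = 1.26e-05, limma). Hdac6 is X-linked, and 2 of 3 VPA, 2 of 3 VPM and 1 of 3 MC arrays had a female pattern of Xist. With inferred sex as a covariate the Hdac6 difference was again 0.53. Hdac10, a polyamine deacetylase, read 264, 331 and 244.5 in VPA arrays, 345, 363.5 and 343 in VPM arrays, and 269, 255 and 249 in MC arrays. Only the VPM arrays stood apart, and for VPA the difference was 0.11 (95% interval -0.16 to 0.37, adjusted p = 0.484). The other Hdac10 probe set lay under the floor of 32 in all 59 arrays.

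**Figure D1:**
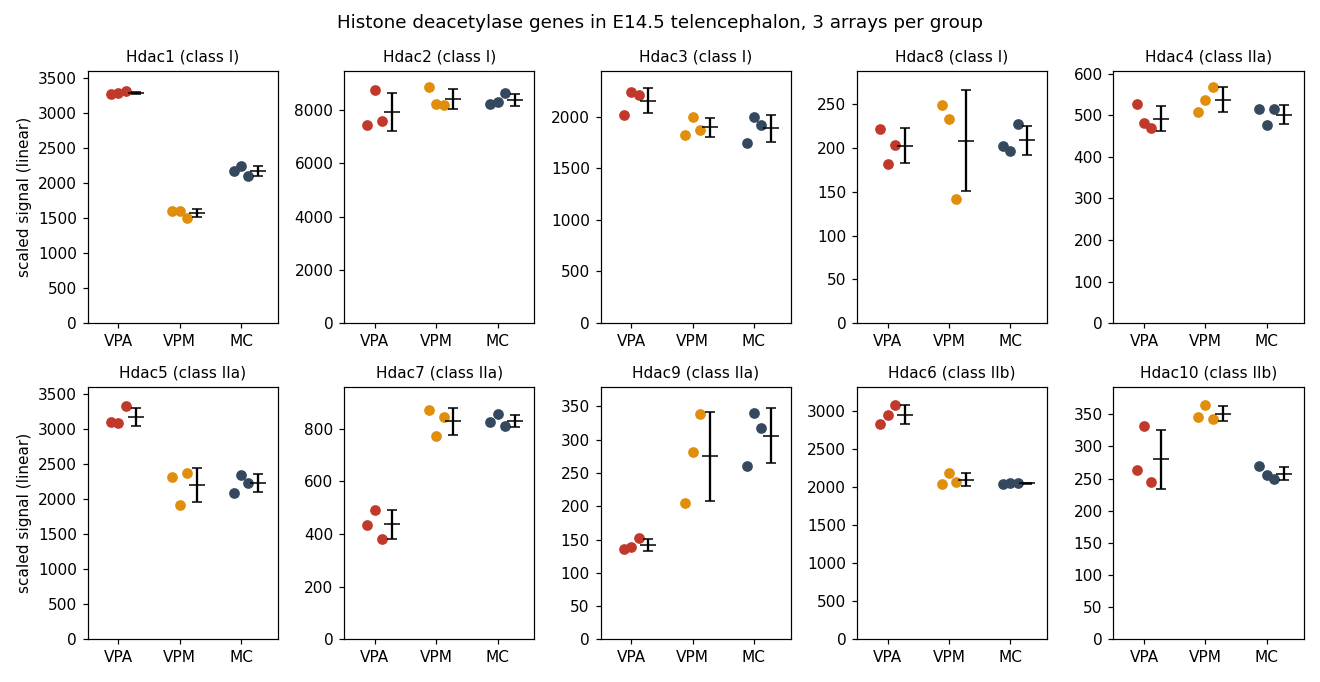
Scaled signal (linear) of the 10 histone deacetylase genes in E14.5 telencephalon; points are single arrays of the VPA, VPM and MC groups, and bars give the mean and SD (n = 3 each). The VPA arrays of Hdac1, Hdac5 and Hdac6 lie above all MC arrays, and those of Hdac7 and Hdac9 below them; VPM arrays stand apart from MC in Hdac1 and Hdac10.

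After VPM, 2 of 10 members were called, Hdac1 lower and Hdac10 higher, against 1279 of 11068 genes or 11.6% of all genes tested. Hdac10 rose to 351 ± 11.2 in VPM arrays, against 258 ± 10.0 in MC arrays (SD, n = 3 each), a log2 difference of 0.45 ± 0.12 (adjusted p = 0.0362, limma). That call was lost with any 1 of the 6 arrays left out, whereas Hdac1 kept an adjusted p of at most 0.00829 under every alternative. VPM replicate 3 carried choroid plexus RNA: the summed signal of 8 measured choroid plexus markers was 20370.3 units there, against at most 458 in the other VPM arrays. Without that array Hdac1 differed from MC by -0.44 (adjusted p = 0.0073). For the 8 members not called, log2 differences lay between -0.17 for Hdac9 and 0.10 for Hdac4, and the 95% interval was widest for Hdac8, -0.47 to 0.38.

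VPA and VPM were given at the same dose and sampled at the same time, so the acid and the amide were compared directly, as 1 pair in each of 3 tissues. At E14.5 the 2 compounds differed in 7 of 10 members, against 54.5% of all genes tested. Hdac1 was 2.10-fold higher after VPA than after VPM (log2 1.07 ± 0.05, adjusted p = 1.23e-07), Hdac5 by 0.53, Hdac6 by 0.49 and Hdac3 by 0.18 on the log2 scale. Hdac7 and Hdac9 were each 1.90-fold lower after VPA than after VPM (log2 -0.93 for both), and Hdac10 was 1.26-fold lower (log2 -0.34 ± 0.12, adjusted p = 0.034). The calls for Hdac3 (adjusted p = 0.0421) and Hdac10 were lost under several alternatives, to 5 called members without single arrays. For Hdac2, Hdac4 and Hdac8 the difference between the compounds was not called, with 95% intervals of -0.23 to 0.05, -0.32 to 0.06 and -0.42 to 0.42.

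Other changes accompanied these calls at E14.5, and their part in them was not tested. Neural progenitor markers had a summed signal of 35559 to 35771 units in VPA arrays and 33475 to 35727 in VPM arrays, against 42772 to 44219 in MC arrays. Of these markers, 5 of 8 were called lower after VPA and 6 of 8 after VPM. Among all 11068 genes tested, 2963 were called lower after VPA and 654 after VPM. Cortical markers summed to 9429.5 to 10075 units after VPA and 14461.5 to 16122 after VPM, against 14541 to 15213 in MC. Endothelial markers summed to 1787 to 1953 units after VPA and 2565.5 to 3032 after VPM, against 2419 to 2647 in MC. Of these, 3 of 8 were called lower after VPA, beside the same 2963 of 11068 genes. Embryonic red cell markers summed to 6600.3 to 10005 units after VPA and 2577 to 3219 after VPM, against 10972 to 12930 in MC. Neuron markers summed to 51271 to 51964 units after VPA and 62755.5 to 66638.5 after VPM, against 54191 to 55038 in MC. Astrocyte markers summed to 2974.5 to 3242 units after VPA and 3489 to 4099.6 after VPM, against 3639 to 4279.9 in MC, and oligodendrocyte markers to 754 to 911 after VPA and 628 to 846 after VPM, against 588 to 677 in MC. For these 3 lists the VPA arrays lay outside the MC range. In bulk tissue, fewer cells of a type and less RNA per cell cannot be told apart.

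The promoters of 4 members that moved with VPA are shown because motifs near their starts can be read beside the direction of change. RefSeq windows of 300 bases (250 before the start and 50 after it, build GRCm38.p6) were used for 7 of 10 members, 11 windows in all. No window was used for Hdac1, Hdac3 and Hdac10. The search skipped a chromosome, so a member without a window here may still have an entry. Hdac5 and Hdac6 rose and Hdac7 and Hdac9 fell; of 4 Hdac7 and 2 Hdac9 windows, the one with the most matches is given. Capitals mark any match to 6 motifs on either strand: 2 spellings of a MEF2 site of 10 bases (the capitals at the positions given below), the E-box CACGTG, the cyclic AMP response core TGACGT, the CCAAT box (ATTGG when read from the other strand) and the GC box, which is GGGCGG, or CCGCCC when read from the other strand.
Hdac5 (chr11:102230123-102230422, minus strand): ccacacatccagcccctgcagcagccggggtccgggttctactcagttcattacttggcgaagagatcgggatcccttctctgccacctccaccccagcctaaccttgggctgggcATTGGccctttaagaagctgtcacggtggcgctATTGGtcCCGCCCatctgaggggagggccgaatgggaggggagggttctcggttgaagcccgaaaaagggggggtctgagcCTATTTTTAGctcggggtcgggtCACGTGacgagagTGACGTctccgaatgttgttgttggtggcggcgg
Hdac6 (chrX:7947840-7948139, minus strand): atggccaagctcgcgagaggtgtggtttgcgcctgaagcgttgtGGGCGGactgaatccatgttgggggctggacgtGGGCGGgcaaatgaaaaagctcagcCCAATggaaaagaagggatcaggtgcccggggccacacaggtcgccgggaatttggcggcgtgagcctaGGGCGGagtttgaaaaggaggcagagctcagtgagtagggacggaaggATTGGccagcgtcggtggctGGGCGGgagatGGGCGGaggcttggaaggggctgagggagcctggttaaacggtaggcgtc
Hdac7 (chr15:97831446-97831745, minus strand): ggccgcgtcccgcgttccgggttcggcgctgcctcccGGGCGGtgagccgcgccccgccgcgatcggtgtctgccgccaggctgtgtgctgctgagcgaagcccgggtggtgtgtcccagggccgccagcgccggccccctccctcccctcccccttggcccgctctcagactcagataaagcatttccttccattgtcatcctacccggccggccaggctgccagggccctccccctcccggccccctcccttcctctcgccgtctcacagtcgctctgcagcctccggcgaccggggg
Hdac9 (chr12:34528840-34529139, minus strand): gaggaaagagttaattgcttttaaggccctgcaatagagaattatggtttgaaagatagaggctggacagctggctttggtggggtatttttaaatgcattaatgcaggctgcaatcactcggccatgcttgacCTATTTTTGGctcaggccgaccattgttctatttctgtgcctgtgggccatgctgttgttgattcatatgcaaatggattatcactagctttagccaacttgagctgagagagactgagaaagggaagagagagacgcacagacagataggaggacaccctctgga

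Of the class IIa genes, the windows shown for Hdac5 and Hdac9 each match a MEF2 spelling. The other Hdac9 window and the windows of Hdac4 and Hdac7 match neither. In Hdac5 the match covers positions -20 to -11 relative to the start, taken as position 0. Of 32851 mouse windows of this kind, 0.11% hold that spelling. Only 2 exact spellings were searched, so the share of a single spelling does not measure how unusual a MEF2 match is. In Hdac9 the other spelling covers positions -116 to -107, and 0.0761% of all windows hold it. That Hdac9 window was picked for having the most matches, so 0.0761% does not measure how unusual its match is. These 2 genes moved in opposite directions after VPA. The Hdac5 window also holds CACGTG (7.15% of all windows) and TGACGT (7.51%). Hdac6 holds 5 GC boxes and 2 CCAAT boxes, Hdac5 holds 1 and 2, and Hdac7 holds 1 GC box, where 35.7% of all windows hold a GC box and 37.4% a CCAAT box. No overlap between matches of different motifs occurred in these 4 windows. A match describes letters only.

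Partners of these enzymes were called in both directions after VPA at E14.5, where 53.8% of all genes were called, 2991 higher and 2963 lower, with a median of 0. Of 30 corepressor complex genes tested, 9 rose and 9 fell, with a median log2 difference of -0.05, a share near that background. Sin3a, the scaffold of the Sin3 complex, rose to 2254.5 ± 61.9 in VPA arrays, against 1463 ± 26.2 in MC arrays (SD, n = 3 each; log2 0.62, adjusted p = 3.4e-06). Suds3, another Sin3 subunit, rose by 0.64, whereas the NuRD subunit Mbd3 fell to 940.5 ± 92.5, against 1748 ± 128.5 in MC (log2 -0.90), and the CoREST subunit Rcor2 fell by 0.68. All 4 had adjusted p-values of at most 7.24e-06 by limma.

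Acetyltransferases, which act opposite to the deacetylases, gave 3 genes that rose and 8 that fell among 15 tested, with a median of -0.22, beside the same 53.8% of all genes. Crebbp, the acetyltransferase CBP, averaged 1386.5 ± 125.3 in VPA arrays and 2828 ± 155 in MC arrays (SD, n = 3 each; log2 -1.03, adjusted p = 1.09e-06). Kat6b, Kat5 and Kat2a differed by -0.98, -0.96 and -0.55, all called, and Kat6b by -0.33 when its probe sets were averaged. Among 24 tested partners of class IIa enzymes, 7 rose and 5 fell, with a median of 0.09, a share near the background. Mef2d, a MEF2 factor bound by class IIa deacetylases, rose to 2203 ± 29, against 1260.3 ± 51.7 in MC (log2 0.81, adjusted p = 1.01e-06), and the kinases Prkd2 and Prkd1, which phosphorylate class IIa enzymes, rose by 1.09 and 0.67. With probe sets averaged, Mef2d differed by 0.47. The kinase Camk1 fell by 0.77. Among 8 genes of classes III and IV, the sirtuins and Hdac11, 3 rose and 3 fell. Hdac11 rose by 0.58, Sirt7 by 0.41 and Sirt2 by 0.34, and Sirt5 differed by -0.93 (adjusted p = 7.24e-05, limma), or by -0.62 with probe sets averaged.

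After VPM, 11.6% of all genes were called, and the partner lists, each of few genes, lay on both sides of that share. Of these lists, 2 of 30 corepressor genes, 1 of 15 acetyltransferases, 0 of 8 class III and IV genes and 5 of 24 class IIa partners were called. Of the 5, named after their values were seen, Camk2b, Mef2c, Camk4 and Mef2d rose by 0.71, 0.66, 0.40 and 0.21, and Prkd1, which had risen after VPA, fell by 0.47 after VPM (adjusted p = 0.00596, limma).

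By E18.5, 4 days after the last dose, no member was called in either tissue. In forebrain, VPA was compared with MC (2.16% of all genes called), VPM with MC (0% called, 626 of 11507 genes at an unadjusted p under 0.05) and VPA with VPM (0.53% called). Hdac1, which had differed by 0.60 at E14.5, read 935, 968 and 965 in VPA forebrains, 1042, 1143 and 1109 in VPM forebrains, and 1063, 1020.5 and 995 in MC forebrains. The VPA arrays were all just below the MC arrays, but the difference was -0.10 (95% interval -0.22 to 0.02, adjusted p = 0.396). Hdac9 averaged 318 ± 18.1 in VPA forebrains and 326 ± 28.5 in MC forebrains (SD, n = 3 each), and Hdac7 averaged 632 ± 15.5 and 696 ± 51.9 in the same groups. Choroid plexus marker sums were 551 to 4907 units in VPA forebrains and 20264 to 24179 in VPM forebrains, against 17894 to 25603 in MC forebrains.

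In E18.5 hippocampus, 0% of genes were called for VPA against MC (1507 of 11540 at an unadjusted p under 0.05), 0.00867% for VPM against MC and 0% for VPA against VPM (1717 at an unadjusted p under 0.05). Members differed from MC by between -0.19 and 0.14 after VPA and between -0.19 and 0.24 after VPM. The smallest adjusted p was that of Hdac2 for VPA against VPM, 0.179, at a log2 difference of -0.17, with VPA arrays at 6647, 6241 and 6768 and VPM arrays at 7038, 7503 and 7611. These ranges did not overlap, and Hdac2 was not called. Choroid plexus marker sums in hippocampus were 22666 to 27027 units after VPA, and 1104 to 27224 after VPM, against 1732 to 29775 in MC, and their part in these values was not tested.

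The change between ages was tested directly as a difference of the 2 drug effects in a fit over all 59 arrays. The VPA effect at E14.5 minus that in E18.5 forebrain was called for 6 of 10 members, against 29.4% of all genes. It was 0.70 for Hdac1 (95% interval 0.51 to 0.89, adjusted p = 8.42e-08), 0.55 for Hdac5, 0.47 for Hdac6, 0.19 for Hdac3 (adjusted p = 0.0475), -0.80 for Hdac7 and -1.07 for Hdac9 (95% interval -1.37 to -0.76, adjusted p = 1.69e-07). The Hdac3 call was lost in 10 of 12 fits that left out 1 array, and on the values as deposited the count was 3, with Hdac3, Hdac5 and Hdac6 not called. For VPM the same difference was called for Hdac1 alone, -0.57 (adjusted p = 0.00014), against 3.17% of all genes, and for 0 members on the values as deposited (adjusted p up to 0.941). The VPA effect in E18.5 hippocampus minus that in forebrain was called for no member, against 0.103% of genes. Tissue as well as age differs between telencephalon and forebrain, and arrays of different ages may have been processed apart, which cannot be told apart from age.

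**Figure D2:**
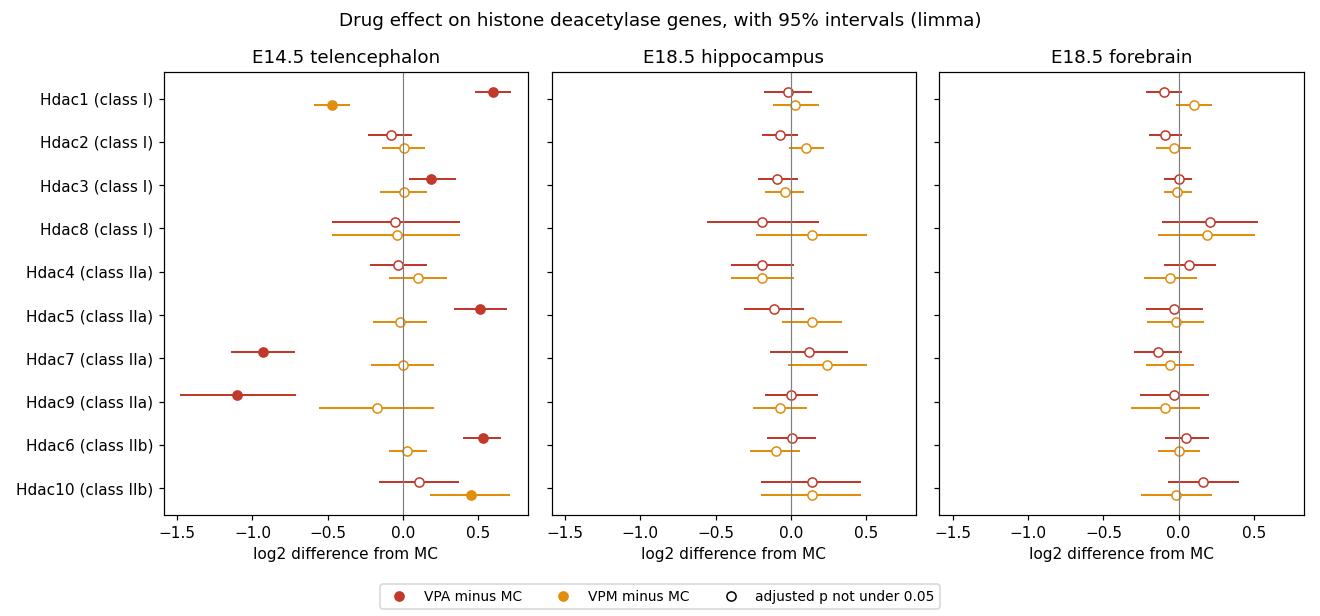
Log2 difference from MC with 95% intervals for each histone deacetylase gene, after VPA and after VPM, in E14.5 telencephalon, E18.5 hippocampus and E18.5 forebrain; filled points have an adjusted p under 0.05. At E14.5, 6 genes differed after VPA and 2 after VPM; at E18.5 no point is filled.

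In adult offspring no member was called after prenatal VPA. For hippocampus 0% of 13466 genes were called for VPA against MC (1478 at an unadjusted p under 0.05), and for cortex 0.00735% of 13606. The largest member difference was that of Hdac8 in cortex, with 109, 135 and 103 units in VPA mice and 169, 206 and 134 in MC mice (log2 -0.54, 95% interval -1.02 to -0.06, adjusted p = 0.427). The groups overlapped by 1 array, and in hippocampus Hdac8 read 118, 121 and 146.5 in VPA mice and 146, 201 and 186 in MC mice (log2 -0.46, adjusted p = 0.402). Hdac7 in cortex read 395, 379 and 363 in VPA mice, below the 517, 462 and 448 of MC mice (log2 -0.33, adjusted p = 0.331). Hdac9 in hippocampus read 691, 688 and 680.1 in VPA mice and 655, 558 and 604 in MC mice (log2 0.18, adjusted p = 0.432). These groups did not overlap for Hdac7 and Hdac9, and neither was called. Hdac4 in cortex differed by -0.14 by its tested probe set (adjusted p = 0.539, limma), also without overlap. The second Hdac4 probe set read 310, 329 and 390 in VPA cortices, below 507, 451 and 527 in MC cortices, and the third overlapped. VPA replicate 1 of cortex carried choroid plexus markers, with a sum of 11076 units, against at most 1509.7 in the other VPA cortices. The VPA effect in hippocampus minus that in cortex was called for no member, against 0.0207% of genes.

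At P84, with 4 hippocampi per group, the members' differences between VPA and MC lay between -0.10 and 0.06, and none was called, against 0% of 13036 genes (645 at an unadjusted p under 0.05). Hdac1 read 1117.5, 1194, 1147 and 1200.5 in VPA mice, against 1260.0, 1160.5, 1168 and 1141 in MC mice. Hdac9 read 578, 520.3, 537 and 532 in VPA mice, against 505, 556, 557 and 593 in MC mice. The groups overlapped for both genes. Hdac7, whose difference was -0.33 in adult cortex, averaged 512 ± 87.8 in VPA and 486 ± 30.7 in MC hippocampi at P84 (SD, n = 4 each). The 95% intervals of the 10 members at P84 reached from -0.37 to 0.30 at most. The VPA effect at P84 minus that in adult hippocampus was called for no member, against 0.0826% of genes. Both sets hold hippocampus of male mice of about the same age.

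Voluntary running changed no member at the threshold. In hippocampus, 0% of genes were called for MC+RW against MC (1174 at an unadjusted p under 0.05), 0% for VPA+RW against VPA (1153), 0% for VPA+RW against MC+RW (568) and 0% for the difference of the 2 running effects (615). In cortex the shares were 0.0147%, 0% (859 at an unadjusted p under 0.05), 0.022% and 0% (848). Hdac5 in cortex read 2244.5, 2074 and 2114 with a wheel and 1908, 1921 and 1643.5 without one in MC mice, without overlap (log2 0.24 ± 0.07, adjusted p = 0.222). Hdac10 in cortex read 172, 245 and 201 with a wheel and 289.9, 308 and 273 without one in MC mice, also without overlap (log2 -0.51 ± 0.15, adjusted p = 0.222). After VPA the same 2 differences were 0.16 and -0.36, with adjusted p-values of 0.756 and 0.755.

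Over the 17 comparisons from E18.5 onward, 20 of 170 member tests had an unadjusted p under 0.05 and 0 were called by limma. Among all genes, the fewest at that threshold were 568 of 13466, in adult hippocampus (VPA+RW against MC+RW). The largest share was 1848 of 11507, in E18.5 forebrain (VPA against MC), and the members' share lay between these. Comparisons within a tissue share groups of arrays, so these tests are not independent.

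Among vehicle animals the deacetylases differed between sets of different age. Tissue also differed between telencephalon, forebrain and cortex, and sets of different ages may have been processed apart. Neither can be told apart from age here. The adults were male, and 2 of 3 E18.5 MC forebrains had a female pattern of Xist. Hdac1, Hdac2, Hdac3 and Hdac6 were lower in adult cortex than in E18.5 forebrain, while Hdac4 and Hdac9 were higher. Hdac2 fell most: it read 2174, 2197.5 and 1862 in adult MC cortex, against 7079, 7142 and 7379 in E18.5 MC forebrain, a 3.47-fold fall (log2 -1.80 ± 0.07, adjusted p = 9e-15, limma). Its second probe set gave -1.71. The third, dim Hdac2 probe set did not fall: it averaged 112 ± 5.6 in adult cortex and 88.4 ± 22.6 in E18.5 forebrain (SD, n = 3 each), with overlap. Hdac6 fell by 0.78 and Hdac7 by 0.55, and Hdac9 rose to 582 ± 45.9 in adult cortex, against 326 ± 28.5 in E18.5 forebrain (SD, n = 3 each; log2 0.84 ± 0.11). Hdac4 rose by 0.53, with 1.04 and 0.24 for its other probe sets. In all 8 of 10 members were called, 2 higher and 6 lower, against 80.9% of 14046 genes. The median difference of all genes was 0.14 and that of the members -0.30. On the values as deposited the count was 5, since Hdac1, Hdac3, Hdac7 and Hdac10 were no longer called and Hdac5 was (0.41), and with all probe sets averaged the Hdac2 difference was -1.05.

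The step from E14.5 telencephalon to E18.5 forebrain showed its largest member difference in Hdac1. It read 1063, 1020.5 and 995 in E18.5 MC forebrain, against 2171, 2245 and 2108 in E14.5 MC telencephalon, 2.12-fold lower (log2 -1.08 ± 0.06, adjusted p = 5.07e-11, limma). Hdac5 fell by 0.51 and Hdac8 by 0.53, and Hdac10 rose to 379 ± 6.52, against 258 ± 10.0 at E14.5 (SD, n = 3 each; log2 0.56). Hdac2 (-0.22) and Hdac7 (-0.26, adjusted p = 0.0451) were also called lower, though on the values as deposited they stood 0.21 and 0.18 higher at E18.5, and the second Hdac2 probe set gave 0.09. The Hdac7 call held in 2 of 12 alternatives, Hdac8 in 8 and Hdac2 in 9. As deposited, Hdac5 and Hdac8 differed by -0.08 and -0.09, not called, Hdac1 by -0.65 and Hdac10 by 0.99, and Hdac10 by 0.28 with probe sets averaged. The count was 6 of 10, against 54.1% of genes. Among members not called, Hdac3, Hdac4 and Hdac6 also turned, to 0.39, 0.32 and 0.28 as deposited, and Hdac9 (0.10) turned to -0.50 with its probe sets averaged. The median of all genes was 0.05 on scaled values and 0.41 on the values as deposited.

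In hippocampus, Hdac2 fell to 2309 ± 84.1 in adult MC mice, against 6877 ± 246.0 at E18.5 (SD, n = 3 each; log2 -1.57), and Hdac6 fell by 0.58. The third, dim Hdac2 probe set averaged 118 ± 33.3 in adults and 105 ± 10.5 at E18.5, with overlap. Hdac5, low in E18.5 hippocampus, rose to 1487 ± 221.8 in adults, against 1045 ± 120.2 at E18.5 (log2 0.50, adjusted p = 0.000755). Hdac3 (-0.14) and Hdac9 (0.26) completed 5 of 10 calls, against 81.5% of genes, though Hdac3 stood 0.19 higher in adults on the values as deposited, where Hdac6 (-0.25) was not called and Hdac5 differed by 0.84. The Hdac9 call was lost in 6 of 12 alternatives, and averaging probe sets gave -1.03 for Hdac2. At P84 the difference from E18.5 was -1.64 for Hdac2, -0.76 for Hdac6, -0.36 for Hdac3 (0.09 as deposited) and 0.89 for Hdac5, 4 of 10 calls against 82.8% of genes, and as deposited Hdac6 (-0.30) was not called while the count was 8. Between P84 and adult hippocampus, 3 of 10 members were called, against 9.84% of genes: Hdac1 by 0.21, Hdac5 by 0.39 and Hdac3 by -0.22. That count was 0 without replicate 2 of the adult MC hippocampi. The median of all genes was 0.12 in adult and 0.13 in P84 hippocampus against E18.5. Hdac8 differed from E18.5 by 0.21, 0.09 and 0.14 in adult cortex, adult hippocampus and P84 hippocampus, and by -0.48, -0.51 and -0.41 with quantile normalization.

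**Figure D3:**
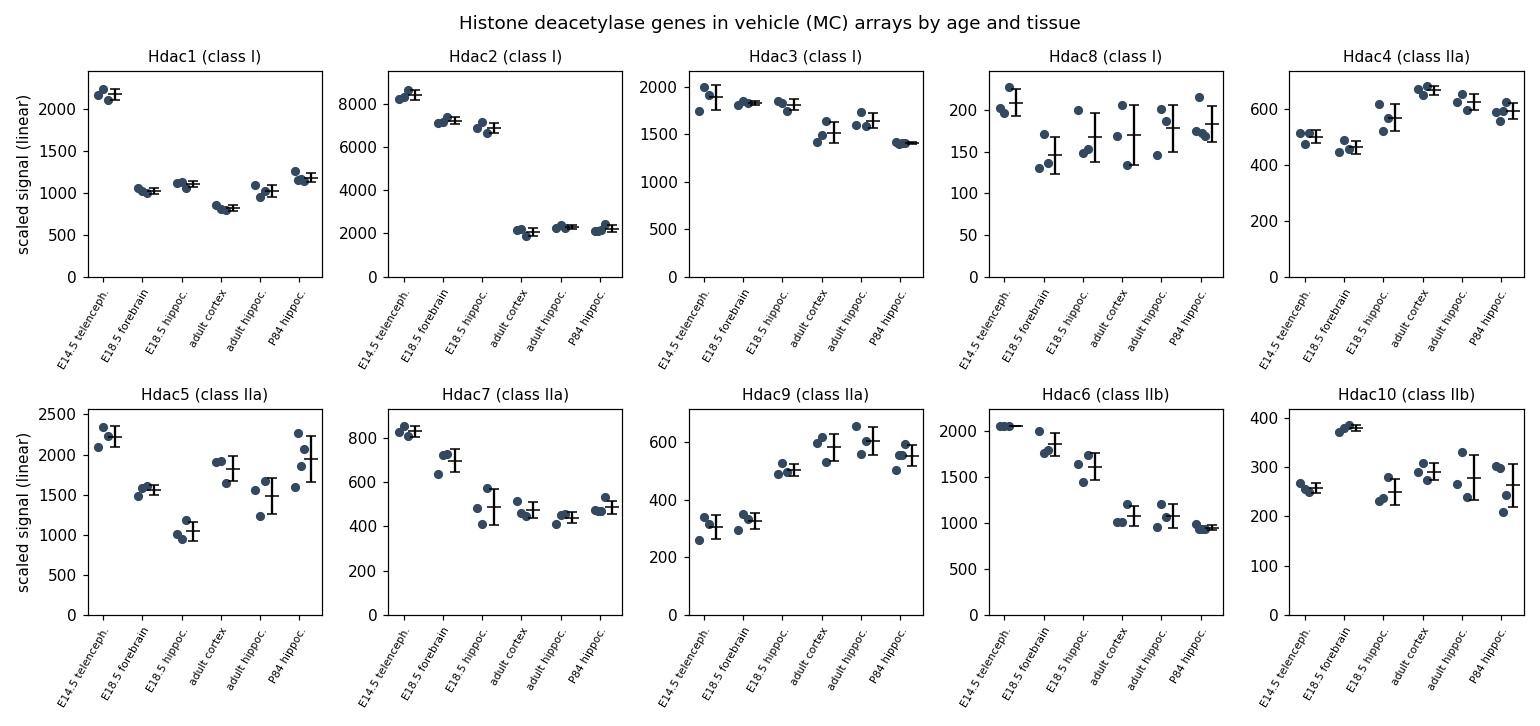
Scaled signal (linear) of the 10 histone deacetylase genes in MC arrays, from E14.5 to P84; points are single arrays and bars the mean and SD (n = 3, or 4 at P84). Hdac2 is at least 6637 units in every embryonic array and at most 2452 in every adult and P84 array, and Hdac1 is highest at E14.5; on values as deposited Hdac2, Hdac3 and Hdac7 stood higher in E18.5 forebrain than at E14.5.

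Hippocampus and forebrain of E18.5 MC embryos differed in 5 of 10 members, against 20.6% of genes. A female pattern of Xist was seen in 0 of 3 of these hippocampi and 2 of 3 forebrains, and the part of sex was not tested. Class IIa genes split: Hdac9 averaged 504 ± 20.4 in hippocampus and 326 ± 28.5 in forebrain (SD, n = 3 each; log2 0.63 ± 0.11, adjusted p = 0.00031), and Hdac4 was 0.29 higher, whereas Hdac5 was 0.58 and Hdac7 0.52 lower. Hdac10 was 0.61 lower in hippocampus, and 0.30 lower with probe sets averaged. On the values as deposited the count was 3, since Hdac9 (0.42) and Hdac4 (0.08) were not called. Between adult hippocampus and cortex, Hdac1 alone was called, against 16.4% of genes: it read 1095.5, 950.2 and 1022 in hippocampus and 857, 803 and 799.6 in cortex (log2 0.32, adjusted p = 0.00113). On the values as deposited that call was lost (0.26, adjusted p = 0.599). Hippocampal markers summed to 16118 to 17391.5 units in adult MC hippocampus and 9249.5 to 10433 in adult MC cortex. At E18.5 they summed to 6529 to 8211 in MC hippocampus and 4299 to 4659.9 in MC forebrain. Choroid plexus markers summed to 1732 to 29775 units over the 3 E18.5 MC hippocampi and 17894 to 25603 over the forebrains, and their part in these differences was not tested.

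Partner genes were called at shares that can be read against 54.1% of all genes from E14.5 to E18.5 (4240 higher, 3352 lower) and 80.9% from there to adult cortex (6293 higher, 5069 lower). Of 31 corepressor genes tested, 7 were higher and 18 lower in adult cortex than in E18.5 forebrain, with a median of -0.35, a share near the background; Kdm1a, the histone demethylase of CoREST, differed by -1.96, Sap30 by -2.32, Rbbp4 by -1.16 and Mta2 by -1.39. From E14.5 to E18.5 the counts were 6 higher and 19 lower, with Chd5, a neuronal NuRD remodeller, at 1.33, Rcor2 at -1.81, Sap30 at -1.07 and Gatad2a at -0.93. Hdac11, the class IV enzyme, was 0.63 higher in E18.5 forebrain than at E14.5 and 1.90 higher again in adult cortex, and Sirt3, a mitochondrial sirtuin, was 0.44 and 1.47 higher. Class IIa partners gave 16 higher and 6 lower of 26 from E14.5 to E18.5, led by the kinases Camk2b (1.75) and Camk4 (1.68), with Mef2d at 0.70. In adult cortex against E18.5 forebrain they gave 13 higher and 8 lower, with Camta2 at 2.31, Camk1d at 1.85, Sik3 at 1.47 and Prkd3 at -1.65. Acetyltransferases gave 4 higher and 5 lower of 15 from E14.5 to E18.5, with Hat1 at -0.97, Clock at 0.73 and Ncoa1 at 0.66, and 6 higher and 8 lower from there to adult cortex, with Clock at 1.52, Kat6a at -1.27, Hat1 at -0.92 and Crebbp at -0.78. Kat6b fell by 0.39 from E14.5 to E18.5, and stood 0.04 higher as deposited. With probe sets averaged, Camk4 (0.68), Clock (0.27), Gatad2a (-0.62) and Prkd3 (-0.97) differed by less, and Mef2d (0.21) from E14.5 to E18.5 and Kat6a (-0.18) and Crebbp (-0.15) in adult cortex were not called. As deposited, the differences from E14.5 to E18.5 were about 0.43 higher for the genes named, which moved Hat1 to -0.54, Sap30 to -0.64, Sirt3 to 0.87 and Ncoa1 to 1.09.

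In hippocampus, where 81.5% of all genes in adults and 82.8% at P84 differed from E18.5, named partner genes gave these values. Kdm1a differed by -1.97 in adults and -2.18 at P84, Rbbp4 by -1.41 and -1.40, and Sap30 by -1.94 and -2.04. Hdac11 was 2.20 and 2.02 higher, Sirt3 1.37 and 1.51 higher, and Camta2 3.05 and 3.01 higher. Crebbp differed by -0.92 in adults and -1.02 at P84, and by -0.40 and -0.28 with probe sets averaged, where Rbbp4 in adults differed by -0.89. Between E18.5 hippocampus and forebrain, Prkd1 was 0.88 higher in hippocampus, Mef2d 0.54 lower and Ep300, the acetyltransferase p300, 0.54 lower. Between adult hippocampus and cortex, Mef2c was 1.61 lower in hippocampus and Camk4 0.78 lower. Between P84 and adult hippocampus, Sin3b was 0.86 higher at P84 (0.10 and not called with probe sets averaged), and Ankra2 (0.36) and Mier1 (0.22) turned to -0.10 and -0.03 when all probe sets of a gene were averaged.

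Taking all 19 groups together, the highest group mean fell at E14.5 in 7 of 10 members, and in the VPA telencephalon for Hdac1, Hdac3, Hdac5 and Hdac6. Hdac1 ranged from 3289.5 ± 19.1 there down to 717 ± 50.1 in MC+RW cortex, and 14 of its 18 neighbouring pairs of groups overlapped in their arrays. Hdac9 ran the other way, with its lowest mean, 142 ± 8.96, in VPA telencephalon and its highest, 686 ± 5.64, in VPA hippocampus of adults. Hdac2 ranged from 8418 ± 379 in VPM telencephalon to 2062 ± 85.3 in VPA hippocampus at P84, and Hdac6 from 2956 ± 123 in VPA telencephalon to 917 ± 141.6 in VPA+RW hippocampus. Hdac5 was lowest in VPA hippocampus at E18.5, 965 ± 72.2, and Hdac7 in VPA cortex of adults, 379 ± 16.1. In Hdac4 and Hdac8 all 18 neighbouring pairs overlapped. The smallest range of group means was that of Hdac3, 1.53-fold, against 1.55-fold for Hdac4 and 1.81-fold for Hdac8. Over all 10 members, 161 of 180 neighbouring pairs overlapped. Groups were first sorted by their means, which sets like groups side by side, so this overlap does not measure how much a gene varied. Hdac2 overlapped in 17 of 18 pairs over a 4.08-fold range of group means. Neither the count of overlaps nor that of members highest at E14.5 was made over all genes.

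**Figure D4:**
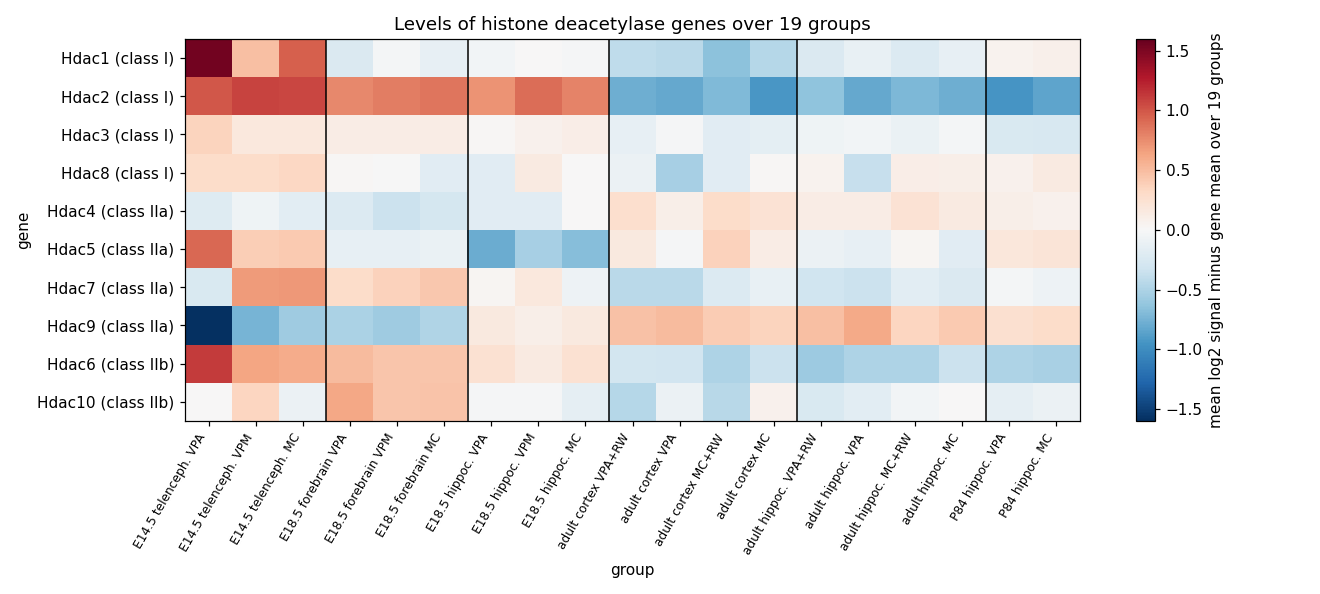
Mean log2 scaled signal of each histone deacetylase gene in the 19 groups, relative to that gene's own mean over the groups (red higher, blue lower); columns run from E14.5 to P84, treated groups left of MC within each tissue. Hdac1 is highest and Hdac9 lowest in the VPA column at E14.5, and Hdac2 and Hdac6 are higher in embryonic than in adult columns.

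The genes most like each member over the 19 group means of log2 signal were taken from 13601 candidates and are a description, since the groups share ages and drugs. Hdac2 was closest to Usp47 (r = 0.999), Sox11 (0.997) and Mex3a (0.997). Hdac6 was closest to Ankrd54 (0.988), Pheta1 (0.984) and Pard6g (0.983), and Hdac9 to Kctd14 (0.984), Scara3 (0.980) and Etfrf1 (0.967). Hdac1 was closest to Gemin5 (0.970), Inava (0.955) and Chd1 (0.952), and Hdac3 to Hps4 (0.963), Tgs1 (0.959) and Wbp4 (0.946). Hdac7 was closest to Dhx30 (0.949), Hdac4 to Pex11g (0.946), Hdac5 to Polg (0.921), Hdac10 to Carmil1 (0.874) and Hdac8 to Strada (0.805). Among the members themselves, Hdac2 and Hdac6 ran most alike (r = 0.93) and Hdac6 and Hdac9 most opposed (r = -0.92).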

How the data were processed

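The values the authors deposited are linear intensities, 1 per probe set. GCOS is named in the submitters' processing notes, and no source used here gives the signal algorithm or its scaling. The deposited intensities had 2% trimmed means of 197.6 to 419.4 over 59 arrays. Multiplying by 1 factor per array brought that mean to 500; signals below a floor of 32 were raised to it before taking log2. Of 45101 probe sets, 34958 carried 1 gene symbol, 932 several and 9211 none. Each gene was represented by its probe set with the highest mean signal. Genes with at least 100 units in at least 3 arrays (4 at P84) of a comparison were tested with limma 3.58.1 (R 4.3.3, lmFit, eBayes with trend) and Benjamini-Hochberg adjustment over all genes tested. The fits used the arrays of 1 age and tissue, the 19 MC arrays for vehicle comparisons, or all 59 arrays for differences between drug effects, 32 comparisons in all. The code was tested on simulated data. Figures and promoter matches used Python 3.11.15, numpy 2.4.6, pandas 2.3.3 and matplotlib 3.10.9. No 2 arrays were identical (0 of 1711 pairs), correlations within groups were 0.972 to 0.994, and the number of arrays limits the precision.

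The members and gene lists were chosen with earlier results of these data known. The text names all members, up to 4 genes per partner list by smallest adjusted p, and 3 similar genes per member. Alternatives were quantile normalization, values as deposited, log2 of signal plus 32, no filter, the mean over probe sets, the replicate number as a block, inferred sex of embryos as a covariate (not in the vehicle fits), and each array left out.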

Additional observations from a re-analysis of the deposited data

Results flagged for a closer look

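The effect of VPA on 6 genes differed between E14.5 telencephalon and E18.5 forebrain by a test of the difference itself (limma, all 59 arrays). Among all genes tested, 29.4% were called by that test. The log2 VPA effect at E14.5 minus that at E18.5 was 0.70 for Hdac1, 0.19 for Hdac3, 0.55 for Hdac5, 0.47 for Hdac6, -0.80 for Hdac7 and -1.07 for Hdac9. By the same test the effect of VPM differed for Hdac1, by -0.57, against 3.17% of all genes. On the values as deposited 3 of the 6 VPA differences (Hdac1, Hdac7, Hdac9) and 0 VPM differences were called.

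Single arrays stood apart from the rest of their group at P84, where groups hold 4 arrays, by Dixon's criterion. Chance meets it in about 1 in 20 independent groups, and 7 of 30 checks of a probe set in a group met it. The checks share arrays and were not made over all probe sets, so these 2 shares cannot be compared. A small gap meets the criterion where the other arrays lie close, as for Hdac6 in MC hippocampus (937.7 to 940.2). In VPA hippocampus, Hdac5 read 2264.4 units in replicate 3, with the nearest array at 1815. In MC hippocampus, replicate 4 was high for Hdac2 (2451.9, nearest 2152), for the second Hdac4 probe set (368.3, nearest 355) and for Hdac7 (532, nearest 476). Replicate 1 was high for the second Hdac2 probe set (1306.7, nearest 1251) and for Hdac6 (988.4, nearest 940.2), and replicate 2 for Hdac8 (215.5, nearest 175). MC replicate 1 and VPA replicate 4 also carried choroid plexus markers, with sums of 19824.5 and 17895 units.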

How the results depend on the processing

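Over 446 recomputed counts of called members, 427 stayed within 1.5 times the count reported and 19 did not. Here and above, counts under an alternative stand without the share of all genes called under it, so they have no background beside them. After VPM at E14.5 the count of 2 became 1 on values as deposited, without the filter, with the mean over probe sets and with inferred sex as a covariate, since Hdac10 was lost. On values as deposited the count was 5 for adult cortex against E18.5 forebrain, 8 for P84 against E18.5 hippocampus, 3 for E18.5 hippocampus against forebrain, 0 for adult hippocampus against cortex and for P84 against adult hippocampus, 3 for the VPA effect at E14.5 against E18.5 forebrain and 0 for the VPM effect. Deposited arrays differ in overall level, and the all-gene median then moved to 0.41, 0.24, 0.37 and 0.50 for E18.5 forebrain against E14.5 and for adult cortex, adult hippocampus and P84 hippocampus against E18.5; calls were 91.6% higher in the first, against 55.8% on scaled values. Differences called on scaled or deposited values that turned round between them were Hdac2 (0.21), Hdac3 (0.39), Hdac7 (0.18) and Kat6b (0.04) in E18.5 forebrain against E14.5, and Hdac3 in adult (0.19) and P84 (0.09) hippocampus against E18.5. Hdac4 (0.32) and Hdac6 (0.28), called on neither, turned too in the first comparison. Averaging probe sets turned Hdac9 to -0.50 (not called) and Hdac2 to 0.09 in E18.5 forebrain against E14.5, and Ankra2 to -0.10 and Mier1 to -0.03 in P84 against adult hippocampus. Quantile normalization turned Hdac8 to -0.48, -0.51 and -0.41 in adult cortex, adult hippocampus and P84 hippocampus against E18.5. The cause of these changes was not tested.

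With 1 array left out, counts ran from 5 to 6 for VPA against MC, 1 to 1 for VPM against MC and 5 to 7 for VPA against VPM at E14.5, with 0 at E18.5, in adults and at P84. For vehicle arrays they ran from 4 to 5 (E18.5 forebrain against E14.5), 8 to 8 (adult cortex), 3 to 5 (adult hippocampus, 3 without adult MC replicate 3), 4 to 4 (P84), 4 to 5 (E18.5 regions), 1 to 1 (adult regions) and 0 to 3 (P84 against adult, 0 without adult MC replicate 2). Within a tissue, deviations of same-numbered arrays correlated at -0.28 to 0.38, not all over 0.1, against -0.41 to 0.34 for other pairs. So few arrays cannot exclude a pairing, and same-numbered arrays of different tissues were not compared. The labels do not say whether the number links samples. With the replicate number as a block, counts of called members stayed at 6, 2 and 7 at E14.5. They became 5 for E18.5 forebrain against E14.5 and 2 for P84 against adult hippocampus. With 3 arrays per group, small differences in dim probe sets such as Hdac8 were not detectable.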
